A study of Homo sapiens with 5 samples.

Results

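The probes hsa-miR-720, hsa-miR-1260, hsa-miR-1274a and hsa-miR-1274b carry miRNA names but have target sequences that match pieces of transfer RNA (tRNA). They were taken by exact probe name, and all 4 were found among the 734 miRNA probes of the panel. Transfer RNAs bring amino acids to the ribosome. Each tRNA is trimmed at both ends and receives the bases C, C and A at its 3′ end from an enzyme, since the genes as a rule do not encode them. Short fragments cut from tRNAs, some of them found bound to Argonaute proteins, were entered as miRNAs in early sequencing catalogues. miR-720 matches a threonine tRNA, miR-1274a and miR-1274b match lysine tRNAs, and miR-1260 matches a leucine tRNA. Unlike a canonical miRNA, such a fragment is not cut out of a hairpin by Drosha.

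RNA came from Caco2, an established line from a human colorectal adenocarcinoma whose cells polarise into an epithelial sheet. The cells had been transduced and selected with a non-target shRNA (NT, replicates 1 and 3, n = 2) or with an shRNA against PLEKHA7 (shPLEKHA7, replicates 1, 2 and 3, n = 3), a protein of the adherens junction. Both groups thus carry an shRNA and differ in its target, and the study asked what loss of PLEKHA7 does to miRNA levels. The RNA came from independent infection sets, and NT replicate 2 was not analysed here. Groups follow the sample titles; the source field of shPLEKHA7 replicates 2 and 3 instead reads shPLEKHA8 and shPLEKHA9, so the labels of these samples disagree. Each library was 1 lane of the NanoString nCounter Human v2 miRNA panel, which counts colour-coded reporters bound to each target without amplification.

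The deposited target sequences of the 4 probes are shown first, because their length and their ends set them apart on the panel. They are written 5′ to 3′ as DNA, with the last 3 bases in capitals.
hsa-miR-720: tctcgctggggcctCCA
hsa-miR-1260: atcccacctctgccaCCA
hsa-miR-1274a: gtccctgttcaggcgCCA
hsa-miR-1274b: tccctgttcgggcgCCA
All 4 end in CCA, the end of a mature tRNA. They are 17 or 18 bases long, against a median of 22 for the other 650 human probes. Their GC content was 61.1% to 70.6%, against a median of 47.6%. Among the other human probes, 8 of 650 (1.23%) also end in CCA.

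miR-1274a and miR-1274b are nearly the same sequence. miR-1274a has 1 extra base at its 5′ end, and after it 16 of 17 bases are identical, the change being A11G, counted from the 5′ end of miR-1274a. Signal could be split between these probes, so each count is open to reads of the other target. The extra 5′ base shifts the seed, bases 2 to 8, from TCCCTGT in miR-1274a to CCCTGTT in miR-1274b. The seeds of miR-720 (CTCGCTG) and miR-1260 (TCCCACC) are different again, and no other probe of the panel has any of the 4 seeds at bases 2 to 8. The other pairs of the 4 probes share runs of at most 4 bases.

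Of the 4 sequences, 1 matched a mature miRNA in the RefSeq tables (GRCh38.p14): miR-1260 is identical to hsa-miR-1260a of the gene MIR1260A. The mature sequence lies at chr14:77266231-77266248 on the plus strand, in a 73-base hairpin at chr14:77266218-77266290. The hairpin is shown because the CCA is encoded there, with the mature sequence in capitals.
MIR1260A hairpin: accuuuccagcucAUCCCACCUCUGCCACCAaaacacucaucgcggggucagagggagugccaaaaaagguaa
This hairpin lies within the span of NGB, the gene of the oxygen-binding protein neuroglobin, and whether it is exonic or intronic was not analysed here. The count of this probe therefore cannot be assigned to the tRNA or to the MIR1260A hairpin from its sequence. hsa-miR-720, hsa-miR-1274a and hsa-miR-1274b had no entry. RefSeq lists 20 threonine, 27 lysine and 32 leucine tRNA genes among 465 tRNA genes, and the match of the fragments to single tRNA genes was not analysed here.

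The miRNA count per lane ran from 32138 to 58298. The detection limit, the mean plus 2 SD of the 8 negative-control probes of a lane, ran from 11 to 24.5 counts. Positive-control spike-ins, synthetic targets added in a set amount, ran from 7686 to 14239 counts and those of the lowest shPLEKHA7 lane (10670) lay just above the higher NT lane (10656). Numbers that end the deposited lane names put both NT lanes before all shPLEKHA7 lanes, so the group cannot be told apart from the position of its lanes. The 4 epithelial and intestinal marker miRNAs (miR-200c, miR-141, miR-192 and miR-194) were above the limit in all lanes, at 56 to 1165 counts. Of 4 blood markers 1 was above it in all lanes, miR-223 at 31 to 48 counts, and of 4 stroma and muscle markers 0 were. A count above the limit does not by itself show that the RNA is present. Viral probes also passed the filter of the test below. Their mean normalized counts ran from 10.9 (ebv-miR-BART11-5p) to 75.1 (ebv-miR-BART9), beside 42.3 for miR-223. Summed counts of the blood markers were 58 and 93 for NT against 63 to 102 for shPLEKHA7, those of the stroma and muscle markers 30 and 38 against 32 to 57, and their part in the results was not tested. Of the 4 epithelial markers and miR-223, edgeR called 0 in the main fit of the test below, with 0 at an unadjusted p under 0.05. The blood marker miR-142-3p had 17 and 33 raw counts for NT against 18, 5 and 29 for shPLEKHA7. The stroma marker miR-145 had 14 and 16 against 25, 14 and 14. miR-142-3p would not have passed the filter without the NT lanes, nor miR-145 without the shPLEKHA7 lanes. No fold or call is therefore given for miR-142-3p and miR-145. The panel holds no PLEKHA7 probe, so the knockdown itself was not analysed here.

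The tRNA-fragment probes were among the strongest signals of these cells. Together they took 9.83% of the miRNA count in NT replicate 1 (95% Wilson interval 9.52% to 10.1%) and 12.6% in NT replicate 3 (12.3% to 12.9%). In shPLEKHA7 replicates 1, 2 and 3 the share was 12.4% (12.1% to 12.7%), 13.2% (12.8% to 13.6%) and 14.9% (14.6% to 15.2%). These intervals cover counting error only. NT replicate 1 lay below every other lane, and the NT and shPLEKHA7 ranges overlapped. The group means were 11.2% ± 1.95 (SD, n = 2) and 13.5% ± 1.31 (SD, n = 3), a difference of 2.28 percentage points against a spread between replicates of 1.55. Without NT replicate 1 the difference was 0.90 and without NT replicate 3 it was 3.66. The overlap depended on background handling. After background subtraction the shares were 10.8% and 13.7% for NT against 14.3%, 14.4% and 16.4% for shPLEKHA7, without overlap.

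miR-720 carried most of that share, with 7.48% to 11.1% of a lane's miRNA count. It was the probe with the most counts in NT replicate 3 and shPLEKHA7 replicate 3 and came second in the other lanes. miR-1274a ranked from 12 to 20, miR-1260 from 16 to 24 and miR-1274b from 22 to 32 among 734 probes. Probes differ in how well they capture their target, so these ranks order counts and not amounts of RNA. The lowest raw counts were 2612 for miR-720, 293 for miR-1260, 342 for miR-1274a and 187 for miR-1274b. Each was at least 13.9 times the detection limit of its lane.

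No other short probe of the panel came near these counts. Of the other 15 human probes with targets of 17 or 18 bases, 0 were above the detection limit in all lanes, and their highest raw count in any lane was 27. Of these, 7 have a GC content of at least 61.1%, with the same highest count of 27. Over all other human probes the share above the limit in all lanes was 18.0%; that difference was not tested. Of the other 8 probes ending in CCA only miR-223, a 22-base miRNA of myeloid cells, was above the limit in all lanes.

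**Figure D1:**
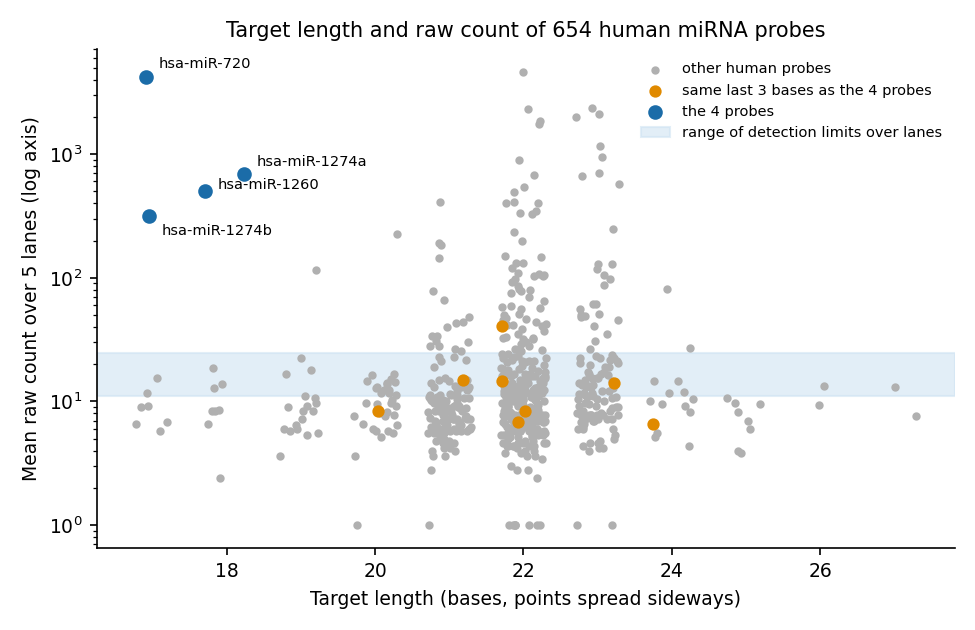
Mean raw count over the 5 lanes (log axis) against target length in bases for the 654 human miRNA probes, with points spread sideways within a length. The 4 tRNA-fragment probes (blue) stand alone above the band of detection limits among targets of 17 or 18 bases, and the other probes with the same last 3 bases (orange) lie at or near that band apart from miR-223.

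The other tRNA-matching probes of the list below that are on the panel were read at or near background. miR-1280 and miR-1308 are further miRNA entries that match tRNAs, a leucine tRNA and the 5′ end of a glycine tRNA. Their targets are shown to set them beside the 4 probes, in lower case because neither ends in CCA.
hsa-miR-1280: tcccaccgctgccaccc
hsa-miR-1308: gcatgggtggttcagtgg
From its base 2, miR-1260 matches miR-1280 at 15 of 17 bases, with the changes T9G and A18C counted from the 5′ end of miR-1260. Raw counts of miR-1280 were 7 and 5 for NT against 7, 4 and 6 for shPLEKHA7, below the limit in every lane. miR-1260 had 293 and 534 counts in the same NT lanes. miR-1308 had 19 and 27 counts for NT against 23, 12 and 13 for shPLEKHA7, above the limit in 3 of 5, both NT lanes among them.

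Listed probes that match other kinds of small RNA were mostly at background as well. The list held 16 such miRNA names (tRNA, Y RNA, vault RNA, snoRNA, snRNA and rRNA sequences). Other probes of the panel were not searched for such matches. Of the 16 names, 10 had a probe. Of these 10, 6 were above the limit in no lane, and only miR-1246 was above it in all lanes. miR-1246, whose sequence also lies in U2 small nuclear RNA, had 76 and 88 raw counts for NT against 150, 124 and 143 for shPLEKHA7. Both miR-1246 and miR-1308 passed the filter of the test below. miR-1308 would not have passed it without the NT lanes, so no fold or call is given for it. In its main fit edgeR did not call miR-1246, at a log2 fold change of 0.61 (SE 0.21, unadjusted p = 0.0168, adjusted p = 0.118). DESeq2 and limma did not call miR-1246 either. edgeR called miR-1246 higher under total-count scaling (log2 0.71, with 5.88% of all probes called higher) and without shPLEKHA7 replicate 3 (0.78, with 2.19%).

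The effect of the PLEKHA7 shRNA was tested with the edgeR quasi-likelihood test. It was run on all 204 probes, human or viral, that exceeded the detection limit in at least 2 lanes. Values below are counts scaled by the trimmed mean of M-values (TMM) over those probes, and fold changes are on the log2 scale, shPLEKHA7 over NT. The test called 13 of 204 probes at a Benjamini-Hochberg adjusted p under 0.05 (6.37%), of which 5 were higher (2.45%) and 8 lower (3.92%) with shPLEKHA7. That balance depended on the scaling, with 12 higher and 8 lower for total counts, 7 and 4 for the upper quartile, 4 and 2 for the deposited or housekeeping scaling, and 4 and 29 for spike-ins. limma on the deposited values called 7 higher and 2 lower. With TMM scaling, edgeR called 10.3% at an adjusted p under 0.1, and 23.5% had an unadjusted edgeR p under 0.05. None of the 4 tRNA-fragment probes was called by DESeq2, by limma or by edgeR with TMM scaling. Upper-quartile and total-count scaling called miR-1274b, as given below. Of the 4, 1 had an unadjusted p under 0.05 in edgeR with TMM scaling, 1 in DESeq2 and 0 in limma. In edgeR it was 3 with total counts or the upper quartile (53 and 56 of the 204 tested probes) and 0 with deposited or spike-in scaling. With TMM scaling all 4 fold changes were above 0, as were 115 of the 204 tested probes. Their median was 0.32 beside 0.06 over the 204. The 4 were read in the same lanes and are not independent observations. Under spike-in scaling 2 of the 4 turned negative and the median was -0.02, where that of all tested probes was -0.27. Without NT replicate 1 the median of the 4 was 0.07, with 3 above 0, and lay below the 0.12 of all tested probes. Without NT replicate 3 it was 0.58 beside 0.08.

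**Figure D2:**
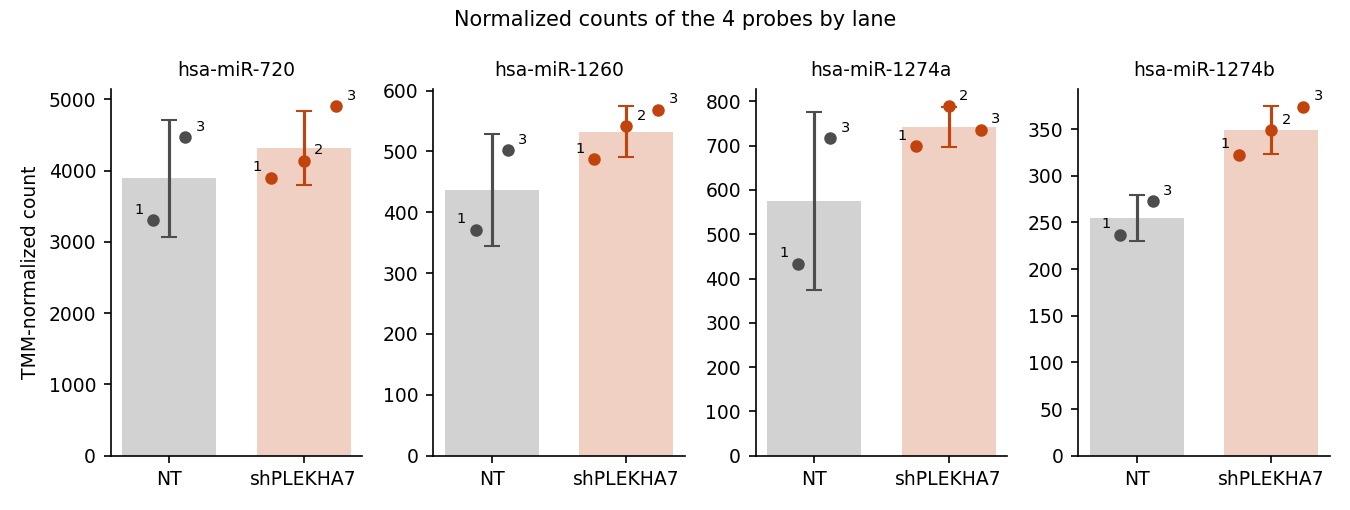
TMM-normalized counts of the 4 probes in NT (grey) and shPLEKHA7 (orange) lanes. Bars show group means, error bars the SD, and numbered points the replicates. NT replicate 1 is the lowest lane for all 4 probes, and only for hsa-miR-1274b do all 3 shPLEKHA7 lanes lie above both NT lanes.

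miR-1274b, the lysine tRNA fragment with the lowest counts of the 4, showed the largest fold. NT replicates 1 and 3 read 237 and 273 normalized counts, and shPLEKHA7 replicates 1, 2 and 3 read 323, 349 and 374. The groups did not overlap, as was so for 26.0% of the tested probes in this direction and 48.0% in either. The means were 255 ± 25.2 (SD, n = 2) and 349 ± 25.7 (SD, n = 3), a log2 fold change of 0.45 (SE 0.14, 95% interval 0.14 to 0.76). The edgeR adjusted p was 0.0976, over the threshold of 0.05 and under 0.1. Of 13 other settings that kept all lanes, the replicate block aside, 2 called it. These were upper-quartile scaling (log2 0.57, adjusted p = 0.0278, with 3.43% of probes called higher) and total-count scaling (log2 0.54, adjusted p = 0.0226, with 5.88% called higher). Spike-in scaling gave 0.12 and an adjusted p of 0.812, the highest of the 13. Deposited and housekeeping scaling gave the same values (log2 0.38, edgeR adjusted p = 0.674), so these are not separate settings in effect.

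miR-1274a, the other lysine tRNA fragment, was the least repeatable of the 4 in the NT lanes. NT replicates 1 and 3 read 433 and 717 normalized counts, and shPLEKHA7 replicates 1, 2 and 3 read 699, 789 and 736. NT replicate 3 lay within the shPLEKHA7 range and NT replicate 1 far below it. The means were 575 ± 201 (SD, n = 2) and 741 ± 45.2 (SD, n = 3), a log2 fold change of 0.36 (SE 0.20, 95% interval -0.08 to 0.80, edgeR adjusted p = 0.284). Without NT replicate 1 the fold change was 0.05, and without NT replicate 3 it was 0.81 (edgeR adjusted p = 0.852 and 0.0627). The difference thus rested on which NT lane was kept.

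miR-1260, the leucine tRNA sequence, read 371 and 502 normalized counts for NT replicates 1 and 3 against 487, 541 and 569 for shPLEKHA7 replicates 1, 2 and 3. NT replicate 3 lay between shPLEKHA7 replicates 1 and 2. The means were 437 ± 92.3 (SD, n = 2) and 532 ± 41.5 (SD, n = 3), a log2 fold change of 0.28 (SE 0.16, 95% interval -0.08 to 0.64, edgeR adjusted p = 0.298). Without NT replicate 1 it was 0.09, without NT replicate 3 it was 0.56, and under spike-in scaling it was -0.051.

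miR-720, the threonine tRNA fragment, read 3311 and 4471 normalized counts for NT replicates 1 and 3 against 3903, 4139 and 4901 for shPLEKHA7 replicates 1, 2 and 3. NT replicate 3 exceeded shPLEKHA7 replicates 1 and 2, so the groups overlapped widely. The means were 3891 ± 820 (SD, n = 2) and 4314 ± 521 (SD, n = 3), a log2 fold change of 0.15 (SE 0.17, edgeR adjusted p = 0.654). Its 95% interval of -0.22 to 0.52 corresponds to between 0.857 and 1.43 times the NT level. Without NT replicate 1 the fold change was -0.050 and without NT replicate 3 it was 0.42. It was 0.05 without shPLEKHA7 replicate 3, -0.18 under spike-in scaling and -0.0085 with no filter.

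**Figure D3:**
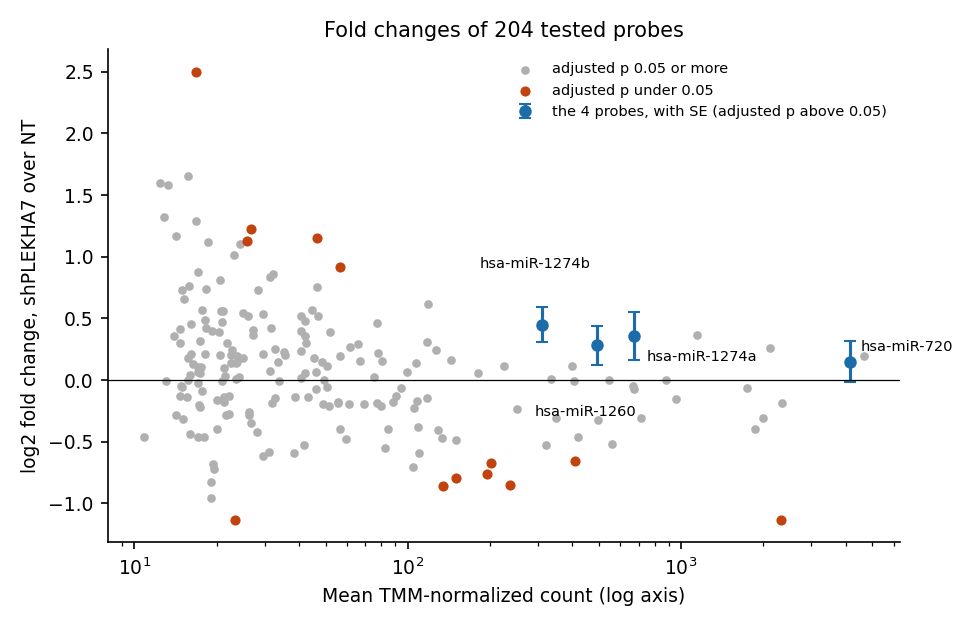
Log2 fold change (shPLEKHA7 over NT) against mean TMM-normalized count (log axis) for the 204 tested probes, with the 13 called probes in orange. The 4 tRNA-fragment probes (blue, bars show the SE) lie between 0.15 and 0.45, and none of them was called.

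The spread between the NT lanes was wide for 3 of the 4 probes beside others of like depth, miR-1274b being the exception. From NT replicate 1 to NT replicate 3 the normalized count differed by log2 0.73 for miR-1274a, 0.43 for miR-1260, 0.43 for miR-720 and 0.20 for miR-1274b. Among the 33 tested probes with at least 100 raw counts in every lane, the median size of that difference was 0.17. miR-1274a had the largest of the 33, and only 3 others reached that of miR-1260. That of miR-1274b was near the median and was reached by 14 of the 33, itself included. Counting error was smaller than this difference for miR-1274a. Its share of the miRNA count was 0.979% (95% Wilson interval 0.881% to 1.09%) in NT replicate 1 and 1.51% (1.41% to 1.63%) in NT replicate 3. Among the shPLEKHA7 lanes the range was log2 0.17 for miR-1274a and 0.33 for miR-720, against a median of 0.23 over the 33.

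Ratios between the 4 probes within a lane need no scaling. The ratio of miR-720 to miR-1260 was the steadiest, at 8.91 in both NT lanes against 8.01, 7.65 and 8.62 with shPLEKHA7. The ratio of miR-720 to miR-1274b was 14.0 and 16.4 for NT against 12.1, 11.9 and 13.1 for shPLEKHA7. Both ratios were lower in every shPLEKHA7 lane than in either NT lane. On the log2 scale the group means differed by -0.14 (spread between replicates 0.07) and -0.29 (0.11). The ratio of miR-1260 to miR-1274b also did not overlap, at 1.57 and 1.84 for NT against 1.51, 1.55 and 1.52 for shPLEKHA7, but the lower NT value lay close to the highest of these. The near-identical pair miR-1274a and miR-1274b had a ratio of 1.83 and 2.63 for NT, a wider gap than the 1.97 to 2.26 of the shPLEKHA7 lanes. The ratio of miR-720 to miR-1274a was 7.64 and 6.23 for NT against 5.59, 5.25 and 6.66 for shPLEKHA7, and that of miR-1274a to miR-1260 was 1.17 and 1.43 against 1.43, 1.46 and 1.30. In total 3 of the 6 ratios overlapped between the groups, namely the 3 that include miR-1274a. The 6 ratios are built from 4 probes and are not independent. Of single tested probes, 48.0% did not overlap between the groups in either direction. The same share for ratios of other probe pairs was not analysed here. These ratios were chosen with the counts known and carry no test.

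Likeness of profile was measured as the root mean square difference of log2 normalized counts over the 5 lanes, each probe centred on its mean, against the other 126 probes above the limit in all lanes. It describes 5 lanes only, and says nothing of shared function. miR-1979 was nearest to miR-720 (0.043) and to miR-1260 (0.051), where the median distance of a probe from these was 0.30 and 0.31. It was not on the list of small-RNA matches above, and whether it matches such an RNA was not analysed here. The other near profiles of miR-720 were miR-1260 (0.088) and miR-374a (0.12). For miR-1260 they were miR-130b (0.054) and miR-19b (0.061), a member of the miR-17-92 cluster. For miR-1274a the nearest were miR-532-5p (0.094), miR-19b (0.11) and miR-130b (0.11), and for miR-1274b miR-19b (0.087), miR-296-5p (0.095) and miR-130b (0.097). miR-1274a and miR-1274b were 0.18 apart, and 9 other probes were nearer to miR-1274a than its near-copy was.

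Among probes of like count, miR-720 stood between miR-92a and miR-373, miR-1274a between miR-103 and miR-371-3p, miR-1260 between miR-15b and miR-205, and miR-1274b between miR-148a and miR-221. Of these 8 miRNAs only miR-92a had a fold change above 0 (log2 0.20, SE 0.15). The others ran from -0.53 for miR-148a to -0.07 for miR-371-3p. None was called, beside 6.37% of all tested probes. Unadjusted edgeR p was 0.018 for miR-148a, 0.024 for miR-205, 0.026 for miR-15b and 0.035 for miR-103. It was under 0.05 for 23.5% of all tested probes. These folds are for TMM scaling only. The median of all tested probes was 0.06 there, 0.15 with total counts, 0.17 with the upper quartile and -0.27 with spike-ins. miR-320a, miR-484 and miR-1226 are known as miRNAs made without Drosha. Of these only miR-484 was above the limit in all lanes, with 52 and 64 raw counts for NT against 86, 63 and 125 for shPLEKHA7. Its log2 fold change was 0.46 (SE 0.17, edgeR adjusted p = 0.135). miR-320a had 2 and 11 raw counts for NT, below the limit, against 30, 13 and 27, and miR-1226 had 9 and 13, also below it, against 25, 14 and 10. Both passed the filter only through shPLEKHA7 lanes, so no fold or call is given for them.

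**Figure D4:**
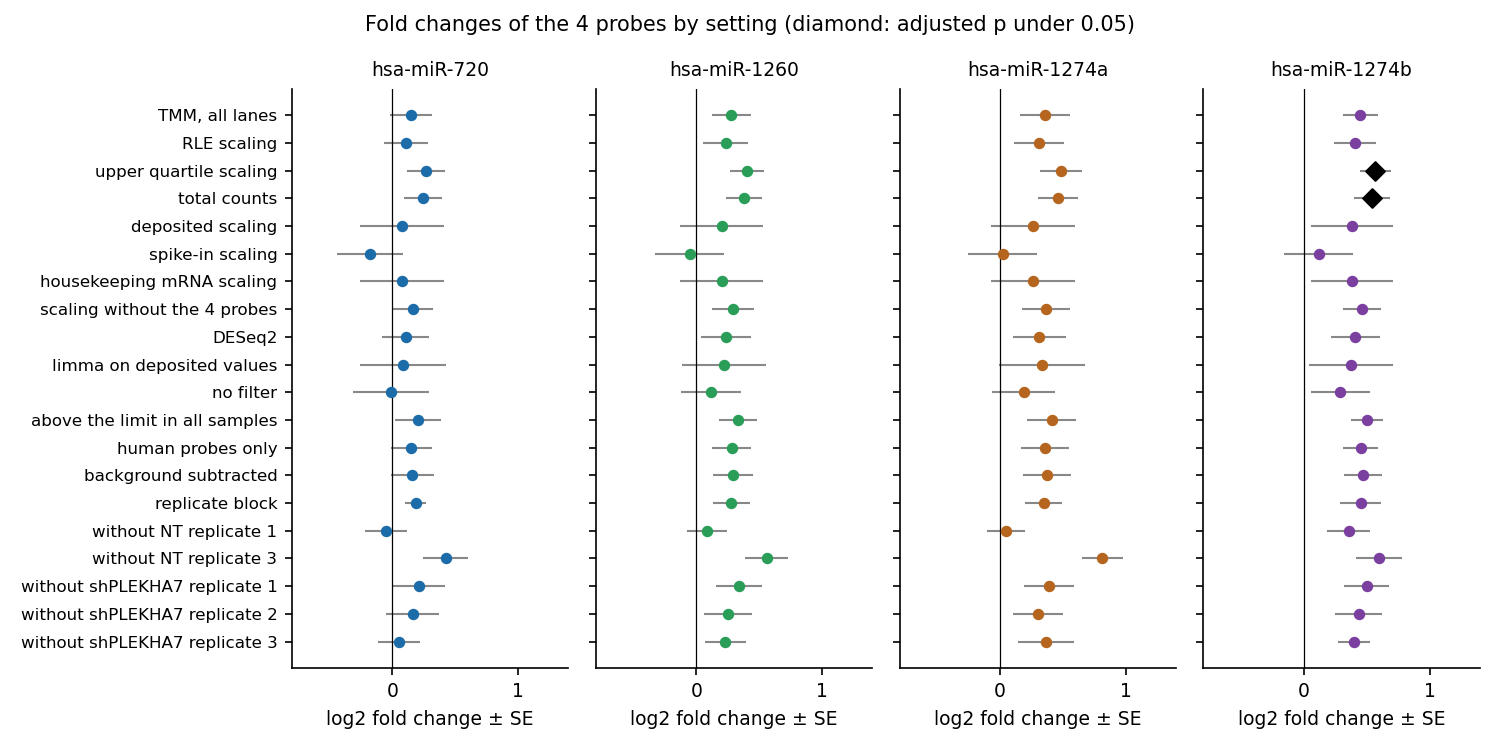
Log2 fold changes of the 4 probes (points, with SE) under each scaling, test and filter, and with each lane left out. Diamonds mark an adjusted p under 0.05, which only hsa-miR-1274b reached, under upper-quartile and total-count scaling. Leaving out NT replicate 1 or NT replicate 3 moves hsa-miR-1274a between 0.05 and 0.81.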

How the data were processed

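The authors' raw deposited table holds whole-number counts for each probe in each lane (654 human and 80 viral miRNA probes, 8 negative controls, 6 spike-ins and 5 mRNAs); their second deposited table holds normalized signal. The export software is not given in the sources used here. From the values, 100% of human entries of the signal table equalled raw count times a lane factor to within 0.02, and viral entries were unscaled. Samples were grouped by title. The main test was edgeR 4.0.16 (R 4.3.3) on raw counts, TMM scaling, a model of group alone, and adjusted p over all 204 tested probes. The SE was derived from the F statistic. Alternatives were other scalings, filters and background subtraction (floor 1), DESeq2 1.42.0, limma 3.58.1 (pseudocount 1), a threshold of 0.1, a replicate block, and the omission of each sample in turn. The edgeR script was tested on simulated data, with changes larger than the folds of the 4 probes and the same dispersion for all probes. That run does not show how well folds of the size reported here are found. Members, lists, named-probe rules and alternatives were chosen with earlier results of these data known. Named probes were the 4, the 3 nearest profiles and adjacent counts of each, tested list members and marker miRNAs.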

Additional observations from a re-analysis of the deposited data

How the results depend on the processing

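Only 2 NT lanes limit every comparison. The fold change of miR-720 turned to -0.18 under spike-in scaling and -0.0085 without a filter, and that of miR-1260 to -0.051 under spike-in scaling. miR-1274b was called under upper-quartile scaling (0.57), total counts (0.54) and at an adjusted p under 0.1 (0.45). With a sample left out, miR-720 ran from -0.050 to 0.42, miR-1260 from 0.086 to 0.56, miR-1274a from 0.046 to 0.81 and miR-1274b from 0.36 to 0.60, with none called.

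Of 13 called probes on the panel, the count became 20 with total counts, 6 with the deposited or housekeeping scaling, 33 with spike-in scaling, 21 at an adjusted p under 0.1, and 0 to 18 with a sample left out. It was 0 in edgeR without NT replicate 3, where 34 probes had unadjusted values under 0.05, and 1 without NT replicate 1, each time with the lone NT lane assumed to vary like the others. The replicate block called 22 probes and none of the 4 (log2 0.18, 0.28, 0.35 and 0.45 for miR-720, miR-1260, miR-1274a and miR-1274b). In that fit shPLEKHA7 replicate 2 has no NT partner, so its group effect rests on the samples numbered 1 and 3. In all other fits same-numbered samples were not taken as pairs, since the labels do not state that they share an infection set. Their deviations from the group mean correlated at 0.024 and 0.15, with 2 shared numbers. NT replicate 1 and shPLEKHA7 replicate 2, with unlike numbers, correlated at 0.14. With only 2 NT lanes their deviations mirror each other, so these values cannot tell whether samples are paired.

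With a sample left out, log2 differences of ratios ran from -0.40 to -0.10 (miR-720 over miR-1274a), -0.41 to -0.18 (miR-720 over miR-1274b), -0.036 to 0.26 (miR-1274a over miR-1260), -0.31 to 0.22 (miR-1274a over miR-1274b) and -0.27 to -0.038 (miR-1260 over miR-1274b). The group difference in the share of the 4 probes moved by less than the replicate spread in every setting. The groups overlapped in that share without background subtraction and did not overlap with it. The causes were not tested.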
